A study of Drosophila melanogaster with 2 samples.

Results

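The 8 homeotic genes of Drosophila melanogaster, lab, pb, Dfd, Scr and Antp of the Antennapedia complex and Ubx, abd-A and Abd-B of the bithorax complex, were taken as a fixed list of names, 8 of 13945 protein-coding genes. Every summit, the highest point of a ChIP-seq peak, was collected in the span of each gene and in 20 kb on either side. The windows overlap in part, and together they cover 627 kb of chromosome arm 3R in 6 stretches. They held 28 of the 6100 called summits and 135 of the 30000 summits of the pooled list. The replicate lists, also of 30000 peaks each, had 144 summits there in replicate 1 and 130 in replicate 2.

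The data come from chromatin immunoprecipitation and sequencing of whole embryos of the strain Myb-GFP, a transgenic line that stably makes Myb with GFP at its C terminus. There was 1 group, embryos of both sexes pooled at 0 to 24 h of age, in 2 biological replicates, and the sample description gives an antibody against GFP for the immunoprecipitation. The antibody label itself reads Myb, so whether untagged Myb could also have been precipitated cannot be told from the labels. No control sample was analysed here, which leaves the background at these loci unmeasured, and no comparison between conditions was possible. Both replicates come from the same line, and whether it kept an untagged Myb gene is not given in the sources used here. In whole embryos, binding in a larger share of cells and more binding per cell cannot be told apart.

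Each relaxed list (pooled, replicate 1 and replicate 2) keeps its 30000 highest peaks, most of them weak. The called set is the authors' selection by a reproducibility analysis, and not every called summit had a match in both replicate lists. On the 6 chromosome arms analysed, the called set was identical to the strongest 6100 entries of the pooled list. The signal is the authors' own value for each peak and is ranked only within a list. Called peaks spanned 93.9 to 7447, with a median of 183, and the weakest entry of the pooled list had 24.3. Read depth is unknown, because the lists hold no read counts.

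The homeotic genes encode homeodomain transcription factors that give each segment along the body axis its identity, and their order along the chromosome follows the order of the segments they act in. Each gene is expressed in some segments and kept silent in others, the active state by trithorax group proteins and the silent state by Polycomb group proteins, acting through long stretches of cis-regulatory DNA. Myb is a transcription factor that works within the Myb-MuvB complex, known in flies for the transcription of cell cycle genes and for replication-coupled gene amplification in follicle cells.

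The strongest called summits of the windows lay away from the promoters of the homeotic genes, and the sequences at 3 of them are shown because the results turn on them. All sequences are from the plus strand of chromosome arm 3R of build dm6, as given by NCBI RefSeq, and are 30 bases long. The first is centred on the Antp summit, the next on the summit beyond the 3′ end of abd-A, and the last 2 lie within 50 bp of the summit upstream of Ubx. Capitals mark the words that were searched for, and a stretch without capitals holds none of them.
Antp, chr3R:6908247-6908276: agtgatctaatatcaagcaggaaacacaat
Beyond abd-A, chr3R:16798567-16798596: catatttctacacatgtgcattcgacttta
Upstream of Ubx, Polycomb-factor core word on both strands, chr3R:16748733-16748762: ATGGCgcatgcaactcagtgccGCCATctg
Upstream of Ubx, Myb site read on the minus strand, chr3R:16748782-16748811: cccacctattttCCGTTAatatttaaacga

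None of the homeotic genes carried a called summit at its own promoter. A promoter was taken as 500 bp to either side of any annotated transcription start site (TSS), and the 8 genes have 19 such sites. Counted this way, 0 of 8 members were called, beside 35.6% of all protein-coding genes. At that share, 2.85 of 8 genes would carry one. The 8 genes are the whole list and not a sample, so the share is given as a description. No promoter window (250, 500 or 1000 bp) and no choice of 1 TSS per gene gave a called summit.

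The relaxed lists held weak summits at most of these promoters. In the pooled list 6 of 8 members had a summit within 500 bp of a TSS, where the share of all protein-coding genes was 59.1%. In replicate 1 it was 7 of 8 members beside 59.1%, and in replicate 2 it was 4 of 8 beside 58.2%. These counts are near the background of the same lists and therefore say little about the homeotic genes.

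The strongest of these weak promoter summits belonged to Antp, the gene of thoracic identity, which has 3 annotated TSSs. At the TSS at 6932840 the signal was 85.3 in the pooled list, 26.4 in replicate 1 and 56.4 in replicate 2. It ranked 6682 in the pooled list and 5467 in replicate 2, so it would be called from replicate 2 if the same number of peaks were kept, and not from replicate 1, where it ranked 10672. The promoter of pb, a gene of the mouthparts, had 42.5 in the pooled list, 18.4 in replicate 1 and 19.2 in replicate 2. That of lab, the gene of the complex that acts in the intercalary segment of the head, had 33.6 at one TSS and 24.7 at the other. Scr, which acts in the labial segment and prothorax, had 32.9 in the pooled list, 13.4 in replicate 1 and 19.6 in replicate 2. The posterior genes were at the floor of the list. Ubx, the gene of the metathorax and haltere, had 25.3, and Abd-B, the gene of the posterior abdomen, had 26.4 at 1 of its 6 TSSs, where neither replicate had a summit; replicate 1 had one at another TSS, at 13.9. Dfd, a gene of the maxillary and mandibular segments, had a promoter summit only in replicate 1, at 14.5. The promoter of abd-A, the gene of the anterior abdomen, had no summit in any of the 4 lists.

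**Figure D1:**
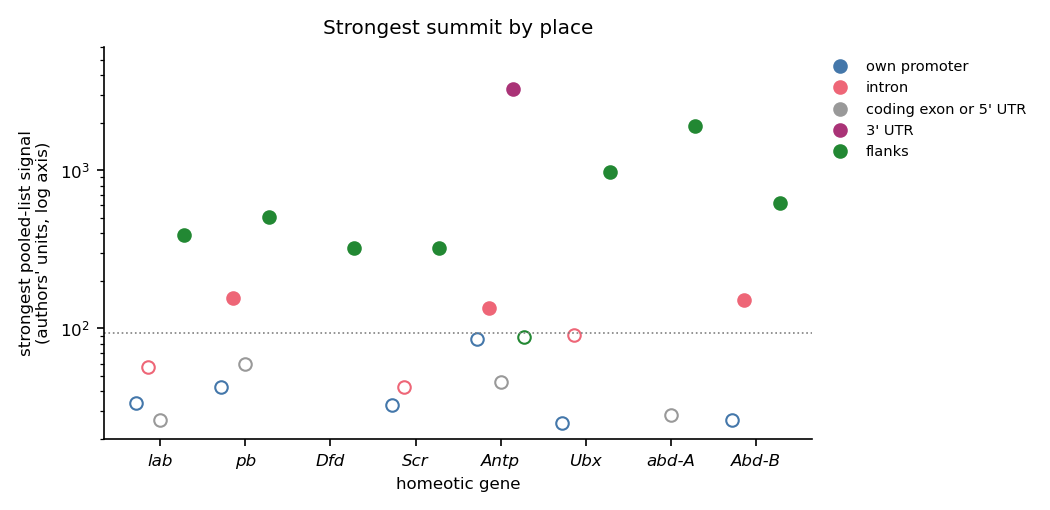
Strongest summit of the pooled list for each homeotic gene at its own promoter, in introns, coding exons or 5′ UTRs, and 3′ UTRs of its span, and in the 20 kb flanks, as the authors' signal on a log axis. Filled symbols are called, open symbols are not, and the dotted line is the lowest called signal, 93.9. The promoters reach at most 85.3, whereas the 3′ UTR symbol of Antp stands at 3235 and the flank symbol of abd-A at 1898.

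All 8 windows held at least 1 called summit, but so did the windows, with the same flanks, of 83.6% of all protein-coding genes. The background was lower for summits away from promoters. A called summit outside any promoter lay inside the span of 3 of 8 members, pb, Antp and Abd-B, beside 5.45% of protein-coding genes. With the 20 kb flanks included it was 7 of 8 members, all but lab, beside 39.3%. The spans of the members are long, from 10.6 to 103 kb, so more of each could hold a summit than in a gene of median length, and the part of length in these counts was not tested. Per length, 7 called summits in 338 kb of member spans came to 20.7 per Mb, all of them outside promoters, beside 13.2 per Mb outside promoters in the spans of all protein-coding genes. Antp held 4 of the 7, and without it, a choice made after seeing the data, the remaining 3 in 235 kb came to 12.8 per Mb, so the difference rests on that gene. With promoter summits counted too, the member spans had fewer called summits, 20.7 per Mb beside 32.5.

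**Figure D2:**
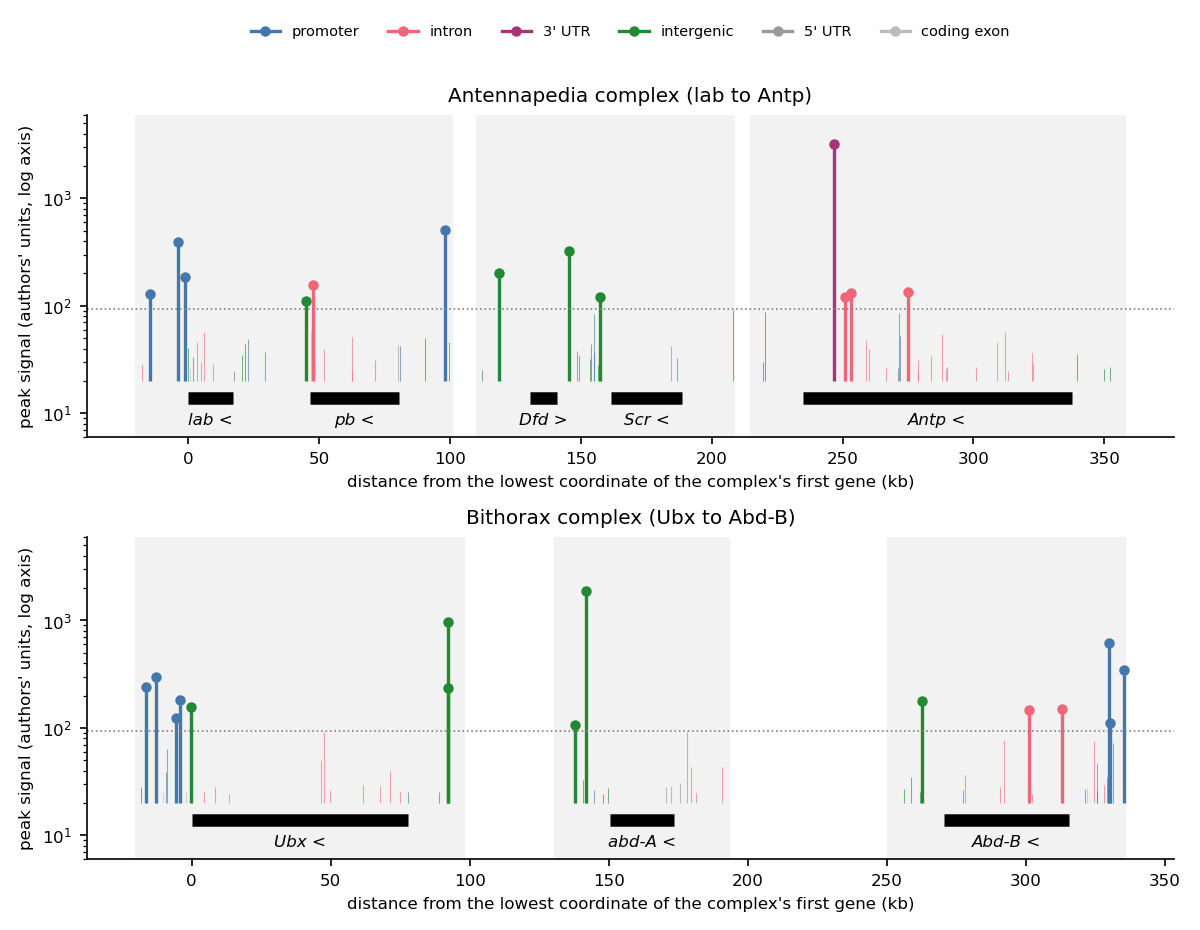
Positions of summits along the Antennapedia and bithorax complexes, in kb from the lowest coordinate of lab or Ubx, against the authors' signal on a log axis, coloured by annotated place. Thick stems with dots are called, thin stems are summits of the pooled list only, grey bands are the windows of each gene with 20 kb flanks and black bars are the genes with their strand. The dotted line is the lowest called signal, 93.9; the tallest stem is the summit of 3235 in Antp, and no dot stands at the start of a homeotic gene.

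The strongest summit of all windows lay in Antp, at position 6908261 of 3R, in a peak of 507 bp from 6908023 to 6908529. Its signal was 3235 in the pooled list, 1852 in replicate 1 and 1393 in replicate 2. It ranked 30 in the pooled list, 25 in replicate 1 and 41 in replicate 2, so both replicates placed it near the very top. The summit falls in the 3′ UTR of 1 of the 12 annotated Antp transcripts, Antp-RH, and in an intron of others. It lies 24.6 kb downstream of the TSS at 6932840, also within the span of CG46458. Among called summits outside promoters it was the 6th of 1741, and among those in a 3′ UTR the 2nd of 51.

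The remaining Antp summits were of another order. The span of this gene, 103 kb from 6896253 to 6999228 on the minus strand, held 4 called summits, all of them outside promoters, and 23 of the pooled list. Only 51 protein-coding genes had 4 or more called summits outside promoters in their span, with a highest count of 11 and a median of 0. The 3 weaker Antp summits were intronic, with signals below the called median of 183. The one at 6914582 had 132 in the pooled list, 51.9 in replicate 1 and 72.5 in replicate 2. That at 6936347, 3.51 kb upstream of the TSS at 6932840, had 136, 52.5 and 81.8 in the same order. That at 6912306 had 119.8 in the pooled list, 63.3 in replicate 1 and no summit within 100 bp in replicate 2. An uncalled pooled summit at 6912505, in an overlapping interval, had 86.2 and was matched only in replicate 2, at 72.9. The lack of a match at 6912306 is therefore not a lack of replicate 2 signal in this stretch. Of the 24 uncalled pooled summits in the Antp window, 7 were matched in both replicates, and the highest had 88.1.

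The next strongest summits of all windows, in order, both lay in the bithorax complex. The summit at 16798581, in a peak of 517 bp from 16798305 to 16798821, lies 8.63 kb beyond the 3′ end of abd-A and 2019 bp from the TSS of the noncoding RNA lncRNA:CR45750. Its signal was 1898 in the pooled list, 924 in replicate 1 and 953 in replicate 2, with ranks of 116, 133 and 99. The replicates thus stood close to each other, and the summit was the 7th of 550 called intergenic summits.

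The summit at 16748765 lies 14.3 kb upstream of the single Ubx TSS, inside lncRNA:bxd, a noncoding RNA gene in the regulatory DNA of Ubx. Its peak of 399 bp runs from 16748561 to 16748959. Its signal was 969.6 in the pooled list, 508 in replicate 1 and 461 in replicate 2, and the ranks of 370, 365 and 361 differed little. It was the 26th of the 550 called intergenic summits, where intergenic means outside protein-coding genes. A second called summit lay 210 bp away, at 16748975, with 233 in the pooled list, 93.3 in replicate 1 and 151 in replicate 2. The intervals of the pair overlap.

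Ubx itself, a gene of 77.8 kb on the minus strand (16656623 to 16734426), held no called summit, although 11 of the pooled list fell inside its span, 10 of them in introns. The intronic summit at 16704401 came closest, with 91.5 in the pooled list, 42.2 in replicate 1 and 46.7 in replicate 2, just under the lowest called signal of 93.9. Of the 7 called summits in the Ubx window, 4 lay at promoters of other genes beyond its 3′ end. The remaining one, at 16656288, lay just beyond the 3′ end of Ubx at 16656623, in a peak that ends at 16656525. This summit also lay 626 bp upstream of modSP, which encodes a serine protease of the immune Toll pathway. Its signal was 156, with 74.0 and 77.7 in the replicates.

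The window of abd-A, 22.8 kb on the minus strand from 16807214 to 16830049, held only the strong distal summit and a weak one. The weak summit, at 16794469, had 107 in the pooled list, 43.8 in replicate 1 and 59.8 in replicate 2. Inside abd-A there was no called summit, and both pooled summits of its span fell in 5′ UTRs. Upstream of abd-A, in the noncoding RNA gene lncRNA:iab8, the summit at 16834786 had 90.7 and missed the called set by a little.

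Abd-B, 45.0 kb on the minus strand from 16927212 to 16972236, held 2 called summits, both in introns. The one at 16957920 had 145 in the pooled list, 85.5 in replicate 1 and 56.6 in replicate 2. The one at 16969751 had 151, 77.5 and 70.0, and with 1.18 kb to the TSS at 16968574 it was the called summit nearest to any TSS of a homeotic gene. Another intronic summit, at 16970079, stood just outside the called set at 91.4, with 43.2 and 52.8 in the replicates. The Abd-B window also held the summit at 16919247 in lncRNA:iab8, with 178 in the pooled list and 89.5 and 91.1 in the replicates. The other 3 called summits of the window lay at promoters beyond the gene, described with the neighbours.

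In the anterior part of the Antennapedia complex, from lab to Scr, no called summit outside a promoter exceeded 323. pb, 34.3 kb on the minus strand from 6707800 to 6742063, had 1 called summit in its span, at 6709034 in an intron near the 3′ end, with 155 in the pooled list, 105 in replicate 1 and 55.3 in replicate 2. A summit between pb and the cuticle gene Ccp84Aa, at 6706539, had 110.4, 54.8 and 56.7. Of the 11 uncalled pooled summits in the pb window, 8 were matched in both replicates, the highest count among the 8 windows beside 3 to 7 in the others.

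Dfd, 10.6 kb on the plus strand from 6791836 to 6802428, was the only homeotic gene with no summit in its span in any of the 4 lists. Its window held 3 called summits, all intergenic. The summit at 6780251, 11.6 kb upstream of the TSS, had 200.2 in the pooled list, 106 in replicate 1 and 94.2 in replicate 2. The summit at 6806936, downstream of the gene, had 323 in the pooled list, 168 in replicate 1 and 153 in replicate 2, which made it the strongest distal summit of the anterior complex. The third, at 6818784, had 120.2, with 41.3 in replicate 1 and 79.9 in replicate 2, so the replicates differed more there.

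The summits at 6806936 and 6818784 also make up the whole called content of the window of Scr, which lies next to Dfd (6823120 to 6849981, minus strand, 26.9 kb) and had no called summit of its own span. The Scr span held 2 pooled summits, one at the promoter and one in an intron with 42.6, and neither was called. Upstream of the gene, the summit at 6869554, 19.6 kb from its start, missed the called set with 91.9, with 39.5 in replicate 1 and 52.9 in replicate 2. The called summit nearest to a Scr TSS lay 21.0 kb upstream, outside the window.

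lab, 17.2 kb on the minus strand from 6661427 to 6678590, was the one member whose called summits all stood at promoters of other genes. Within its span the pooled list had 6 summits, 4 of them intronic, and none was called. The highest of the 13 uncalled summits in its window was intronic, at 6667512, with 57.5.

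Of the 28 called summits in all windows, 11 lay at promoters, all of genes other than the homeotic ones, and 17 lay elsewhere. The promoters of 34 other protein-coding genes fall in the windows, and 11 of the 34, or 32.4%, carried a called summit, near the 35.6% of all protein-coding genes. Neighbouring genes with close starts, such as CG1307 and twr, can share a summit. The highest was at CG18622, beyond the 5′ end of Abd-B, with 618 in the pooled list, 264 in replicate 1 and 356 in replicate 2, and a second summit 202 bp away had 112 and no match in replicate 1. The promoter of bcd, which encodes the anterior determinant laid down in the egg, lies in the pb window and had 504, 233 and 272.

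Next to lab, the shared promoter of CG1307 and twr had 392, 207 and 168. The promoter of agt, a DNA alkyl repair enzyme, had 184, 109 and 72.2, and that of Taf1, the large subunit of the general factor TFIID, had 128, 64.2 and 63.4. The called summit of agt lies 3.34 kb from the start of the shorter lab transcripts and was the summit nearest to a lab TSS. Beyond the 3′ end of Ubx, Arl6IP1 had 298, nonA-l 242, CG14907 181 and Mettl4 125 in the pooled list. EMC2B, for a subunit of the endoplasmic reticulum membrane complex, shared a summit of 344 with lncRNA:CR45221 next to Abd-B. The 8 cuticle genes between lab and pb, Edg84A and the Ccp84A genes, had 0 called promoter summits.

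Sorted by place, 39.3% of the called summits in the windows lay at promoters, beside 71.5% of the whole called set. Intergenic sequence held 35.7% beside 9.02%, introns 21.4% beside 18.0%, and 3′ UTRs 3.57%, a single summit, beside 0.836%. No called summit of the windows fell in a coding exon or a 5′ UTR. Joined, the windows had 44.6 called summits per Mb, beside 45.6 per Mb for the arms. This nearness depends on the flank: with 10 kb flanks the windows had 34.2 per Mb, and with 50 kb flanks 44.5. Windows with the same 20 kb flanks around all protein-coding genes were shorter, with a median of 42.2 kb beside 70.6 kb for the members. The median count was 3 called summits per window in both. Per length the member windows were poorer: the median was 4.64 called summits per 100 kb of window for the members and 7.17 for all genes. All 8 members lay below the latter. The division was another, with 27.1 per Mb outside promoters beside 13.0, and 17.5 per Mb at promoters beside 32.6. The windows also held fewer protein-coding genes, 66.9 per Mb beside 104.2 on the arms, while TSS positions of all kinds stood at 158 per Mb beside 176. The part of gene density in this division was not tested. These are counts of 1 called set without a test, and the windows were not matched to other stretches.

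**Figure D3:**
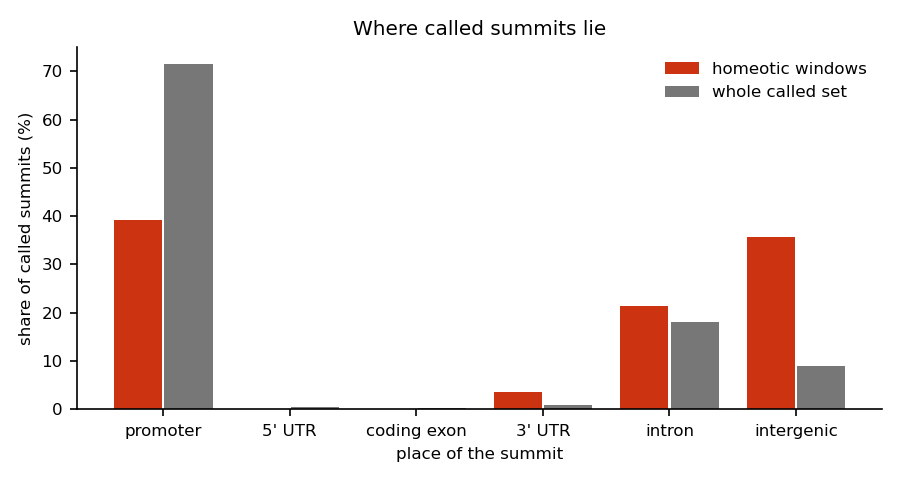
Share of summits, in percent, by annotated place for the 28 called summits in the windows of the homeotic genes (red bars) and all 6100 called summits (grey bars). The promoter share is 39.3% in the windows and 71.5% in the whole set, and the intergenic share 35.7% and 9.02%.

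The same division was present but smaller in the pooled list. Its summits in the windows lay at promoters in 26.7%, beside 36.9% of the whole list, and in intergenic sequence in 25.2% beside 15.5%. Introns held 38.5% beside 35.3%, coding exons 4.44% beside 8.40% and 5′ UTRs 3.70% beside 1.04%. In density the pooled summits of the windows, 215 per Mb, were equal to those of arm 3R at 215 per Mb, beside 224 per Mb for the 6 arms. The windows had 230 per Mb in replicate 1, beside 220 on arm 3R, and 207 in replicate 2, beside 215.

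Apart from the 3 strong sites, the summits outside promoters were of ordinary height. The 17 had a median signal of 155, from 107 to 3235, beside a median of 148 for the 1741 called summits outside promoters, and 11 of the 17 were under 200. At promoters in the windows the median was 242, from 112 to 618, beside 203 for all called promoter summits. Of the 17, 10 lay above the median of all called summits outside promoters.

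The replicates matched in these windows about as often as elsewhere. A summit within 100 bp in both replicate lists was found for 26 of the 28 called summits, and for 95.1% of the other 6072. Over the 135 pooled summits it was 46.7%, beside 47.1% of the whole pooled list, and over the 107 uncalled ones 34.6% beside 34.9%. The ratio of replicate 1 to replicate 2 signal had a median of 1.09 over the 26 matched summits, from 0.517 to 1.90, and 1.01 over 5801 called summits. The 3 strong sites were among the strongest 6100 peaks of each replicate, as their ranks given above already imply. So were 24 of the 28 in both replicates. The share over all called summits was not computed, so that count cannot be read as particular to these windows.

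**Figure D4:**
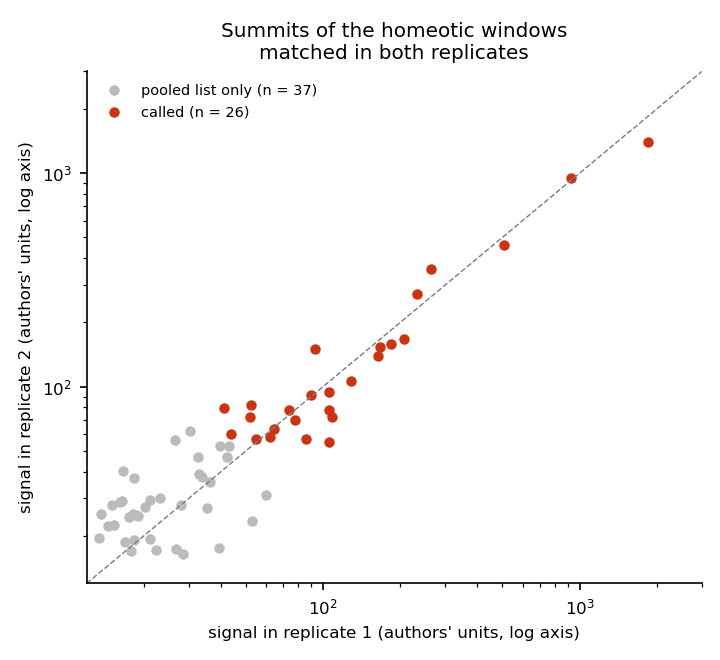
Signal in replicate 1 against signal in replicate 2, both on log axes, for the pooled-list summits in the windows that have a summit within 100 bp in both replicates, 26 called (red) and 37 not called (grey). The dashed line marks equal signal. The Antp summit stands at 1852 and 1393, the one beyond abd-A at 924 and 953 and the one upstream of Ubx at 508 and 461.

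Words known for DNA-binding factors were searched on both strands within 50 bp of each summit. The Myb site TAACGG was found at 1 of 28 called summits in the windows, or 3.57%, beside 6.41% of all called summits, and the variant CAACGG also at 1 of 28, beside 3.48%. The cell cycle homology region, the element read by MuvB, was searched in a pair of forms. TTTGAA was at 6 of 28, or 21.4%, beside 19.3%, and the form TTCGAA, which reads the same on both strands, at 1 of 28 beside 4.84%. None of these shares stands far from that of the whole set, which holds more promoter summits, and a count of 1 is too small to read. Outside promoters, TTTGAA was at 2 of 17 summits, or 11.8%, beside 19.4% of 1741. There TAACGG was at 5.88% beside 3.96%, CAACGG at 0 of 17 beside 2.47% and TTCGAA at 5.88% beside 4.60%. For each word the direction was the reverse of that over all summits, so no direction can be read.

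Words of other factors, among them factors that act on Polycomb response elements, were each found at 2 to 4 of the 28 summits. On these small counts, GCCAT was below its share of the whole called set and the other words were above theirs. GCCAT, the core of the site of Pho, the DNA-binding Polycomb group protein, was at 3 of 28 summits, or 10.7%, beside 17.3%. GAGAG, the word of GAGA factor, was at 4 of 28, or 14.3%, beside 9.80%. The promoter element TATCGATA, a palindrome, was at 2 of 28, or 7.14%, beside 6.08%, both at promoters of neighbours of Ubx. AGGNGGC, a core of the site of the insulator protein CTCF that was added after the data were seen, was at 3 of 28, or 10.7%, beside 4.10%.

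The summit upstream of Ubx was the only 1 of the 3 strong sites with any of the words. GCCAT lay there on both strands in 1 stretch of 30 bases, and TAACGG lay on the minus strand next to it, as printed above. The Antp summit and the one beyond abd-A held none of the words within 50 bp. A missing word says only that these letters are not in the window, and a match is a description and not a site. Further stretches, with the words in capitals, show the matches at the summit shared by the Dfd and Scr windows, in an Antp intron, in lncRNA:iab8 and at the promoters of bcd and Arl6IP1.
Between Dfd and Scr, TTTGAA on the minus strand, chr3R:6806922-6806951: gacacaaaagttcgatattTTCAAAattag
Antp intron, GAGAG, chr3R:6914568-6914597: tctaaagctaGAGAGgtaactttagaagta
lncRNA:iab8, AGGNGGC on the minus strand, chr3R:16919227-16919256: GCCACCTggccttggtaatgtagaactagg
bcd promoter, AGGNGGC and GAGAG, chr3R:6759671-6759700: cAGGGGGCgtgaagagacagcagtaGAGAG
Arl6IP1 promoter, TTTGAA on the minus strand and CAACGG, chr3R:16643719-16643748: aatcagtcatTTCAAAacgtcgatCAACGG

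The genes for regulators of the homeotic genes were called at promoters more often than the background share. Among 18 Polycomb group genes, 13 promoters were called, or 72.2%, and of 13 trithorax group genes 9 had one, or 69.2%, beside 35.6% of all protein-coding genes and 0 of 8 homeotic genes. The differences between lists were not tested. The promoter of trx, the founding trithorax group gene, had 3205, next in size to the Antp site at 3235, with 1597 in replicate 1 and 1615 in replicate 2. Other strong promoter summits were those of Scm at 1019, osa at 491, Trl at 476, Caf1-55 at 437 and esc at 328. The partners of the homeotic proteins, exd, hth and tsh, had 0 of 3 promoters called, and hth had an intronic summit of 128.

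Genes of the segmentation cascade gave mixed counts. A promoter was called in 2 of 14 maternal axis and gap genes, bcd and tor, or 14.3%, beside 35.6% of all protein-coding genes. It was called in 0 of 8 pair-rule genes, so the lack of a called promoter was not particular to the homeotic genes. Of the segment polarity genes 8 of 20 were called, or 40%, near the share of all genes, among them the signalling components smo, sgg and cos. Called summits outside promoters lay in the span of 1 of the 14, 0 of the 8 and 4 of the 20, beside 5.45% of all protein-coding genes. In the lists of regulators and partners it was 5 of 13 trithorax group genes, 2 of 18 Polycomb group genes and 1 of 3 partners. Such summits, found in 3 of 8 homeotic genes, were thus not particular to them. Of the 5 other genes of the Antennapedia complex looked up, bcd was called with 504 and Ama with 94.0, at the edge of the called set.

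Each gene was also described by a profile of 10 values, log2 of 1 plus the highest signal at its promoters, exons, 3′ UTRs, introns and flanks in each replicate list, and set against the median profile of the 8 members. By Euclidean distance, the closest of 13900 other genes were RhoL, at a distance of 2.17, Targ2 at 2.22, dve at 2.28, twit at 2.38 and CG5171 at 2.39, where the median of all genes was 9.08. The homeotic genes themselves were no tight group. Ubx, at 2.67, and Abd-B, at 2.68, were nearest to their common median, lab followed at 4.70 and Scr at 5.91, and abd-A at 7.05, pb at 7.45 and Dfd at 7.79 were farther. Antp, at 15.9, lay farther from it than the median gene. It was the only member with a summit in its 3′ UTR in the replicate lists, at 1852 and 1393. The exon or 5′ UTR summits of pb were weak, at most 19.0 in replicate 1 and 40.4 in replicate 2. Whether a place holds any listed summit enters the distances along with the signal of that summit. The distances therefore do not measure differences in binding alone.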

How the data were processed

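Peak lists on build dm6 were analysed for 1 group of 2 biological replicates. Per the labels, relaxed peaks were called in each replicate and on the pooled alignments as input for a reproducibility analysis (IDR), from which the called set came. Which aligner and peak caller made them, in which version, and at which IDR threshold is not given in the sources used here. Column signal, as deposited by the authors, has no stated scale. The deposited −log10 q was read and ranked nothing. The summit is the interval start plus the deposited offset, written 1-based.

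Summits were assigned in order to promoter (TSS at most 500 bp away), then 5′ UTR, then coding exon, 3′ UTR, intron or intergenic sequence, with Python 3.11.15, numpy 2.4.6, matplotlib 3.10.9 and Ensembl release 115, whose coordinates of 8 of 8 members equal those of RefSeq on the same assembly. Promoters used 23581 TSS positions of all genes; UTRs, exons and introns were those of protein-coding genes. A summit was matched within 100 bp. No test was run, because there is 1 group. The assignment and matching were tested on simulated summits, and 400 of 400 places and 300 of 300 matches were recovered.

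The members, gene lists and words were chosen with earlier results of these data known. Named genes were all members, every gene with a called promoter summit in their windows, each member's strongest pooled summit by place, the 3 strongest called genes of each list and the 5 genes with the nearest profile; further genes were named after their values were seen. In the lists, 4 written names were not analysed here. Alternatives were other promoter windows, flanks and match distances, 1 TSS per gene, the 3050 called peaks with the higher signal, and, to leave a replicate out, the strongest 6100 peaks of the other one. Lists on build dm3 were not used.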

Additional observations from a re-analysis of the deposited data

How the results depend on the processing

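The count of homeotic genes with a called promoter summit was 0 with promoter windows of 250 and 1000 bp, with the most 5′ TSS alone and in the 3050 called peaks with the higher signal. Leaving out a replicate gave 0 to 1, the 1 being Antp without replicate 1. All 8 windows held a called summit under every alternative run. The 28 called summits became 17 with 10 kb flanks, or 34.2 per Mb in place of 44.6. Among the 3050 called peaks with the higher signal they became 13, or 20.7 per Mb. That fall follows from keeping fewer peaks, since the arms then have 22.8. Without a replicate the called summits were 28 to 33. The pooled summits matched in replicates were 63, and 90 to 96 when only 1 replicate had to match, which asks less by construction. Classes moved by at most 1 summit with a 1000 bp promoter window. No paired analysis was possible because there is 1 group. Limits were unknown depth, an unstated signal scale, no control sample and 2 replicates of 1 line, so a missing summit is not absence of Myb.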

Other observations

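The windows do not cover the whole of each complex, and a look at the stretches between them was added after seeing the data. From lab to Antp, 338 kb, there were 13 called summits, or 38.5 per Mb, 2 of them at promoters, and 3 lay outside the windows. These were a summit of 94.0 at the promoters of Ama and lncRNA:CR45593, a summit of 121 in lncRNA:CR42721 and a summit of 107 near ftz, a pair-rule gene. The first had no match in replicate 1. From Ubx to Abd-B, 316 kb, there were 9, or 28.5 per Mb, 1 of them at a promoter, and 2 lay outside the windows. Both of these were in lncRNA:iab8. The one at its promoter, at 16899547, had 123 in the pooled list, 68.0 in replicate 1 and 57.8 in replicate 2. The other, at 16869405, lay in an intron of MSAmiP and had 108, 74.0 and 39.8. None of the 5 approached the signal of the 3 strong sites.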
